A study of Mus musculus with 40 samples.

Results

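The complement components and receptors described here are 9 genes: C1qa, C1qb and C1qc, C3, C4b, Cfb, the receptors C3ar1 and C5ar1, and the inhibitor Serping1. They were taken by symbol from a table of 14318 genes, and all 9 were found, each with more than 10 reads in every one of 39 tumors. The tumors were primary mammary tumors from wild-type female BALB/c mice mated at 8 weeks of age. The mice were lactating, with their pups just weaned, when luciferase-expressing 4T1 or 66cl4 cells were injected through the nipple into the milk ducts. Both are mouse lines used as models of triple-negative breast cancer (TNBC), and each model rests on 1 cell line. Mice of each model stayed untreated or received repeated i.p. injections once tumors had developed. These were anti-PD-1 (200 µg each), an antibody against a checkpoint receptor of T cells, chitin (1 mg each), or chitin + anti-PD-1. Chitin is the polysaccharide used in the study to block chitinase-like proteins. Anti-PD-1 was given weekly and chitin at shorter intervals, so the number of injections differed between groups. Tumors were collected 5 weeks post-inoculation (p.i.) for bulk RNA sequencing, with 5 tumors per group except 4 in the untreated 4T1 group. The labels do not say whether untreated mice received control injections, so an effect of injection and an effect of the agent cannot be told apart. Nothing in the labels ties a tumor to a mouse, litter or day, and n is given in tumors. The paper inoculated a pair of mammary glands in each mouse, so tumors of a group may come from the same mouse. The tests treated every tumor as independent.

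Complement is a cascade of plasma proteins that tags and attacks targets, and it is also made locally by cells in tissues and tumors. C1q, built from the products of C1qa, C1qb and C1qc, binds antibody complexes and dying cells and starts the classical pathway, in which C4 is cleaved next. C3 is the central component on which all pathways converge, and factor B (Cfb) supplies the enzyme that amplifies C3 cleavage in the alternative pathway. The fragments C3a and C5a act on the G protein-coupled receptors C3ar1 and C5ar1 of myeloid cells. C1 inhibitor, encoded by Serping1, blocks the proteases C1r and C1s that C1q activates. In tissues C1q comes mainly from macrophages, whereas C3 and factor B are made by many cell types during inflammation and interferon signalling.

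The number of reads assigned to genes ranged from 5105898 to 14800352 per tumor, with a median of 6590274, and the fewest reads for any of the 9 genes in any tumor were 38. In the 66cl4 model, tumors of the chitin-containing groups were sequenced more deeply (mean 9901574 reads) than the others (mean 6446900 reads). The values below are normalized counts, that is, reads divided by a size factor for each tumor. Differences are on the log2-like scale of the variance stabilizing transformation (VST), on which a difference of 1 is close to a doubling at these levels. Of 12 macrophage markers, 11 were analysed and none was at 0 reads in any tumor. Of 6 hepatocyte markers only Serpina1a was analysed here, with at most 42.7 normalized counts in any tumor, which matters because the liver is the main source of plasma complement. In bulk tumors, fewer cells of a type and less RNA per cell cannot be told apart.

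The 3 C1q genes lie side by side on the minus strand of chromosome 4 in the mm10 build (GRCm38.p6): C1qb at chr4:136880126-136886200, C1qc at chr4:136889801-136892936 and C1qa at chr4:136895916-136898844. C4b (chr17:34728139-34743902), Cfb (chr17:34856374-34862514) and C3 (chr17:57203967-57228136) share chromosome 17. C3ar1 lies at chr6:122847140-122856157, C5ar1 at chr7:16246743-16259540 and Serping1 at chr2:84765360-84775444, all on the minus strand. C4b has a near-identical copy, C4a, and reads of the pair can be split between them, so the C4b values are uncertain to that extent. The 250 bases upstream of the start site are shown for C1qb and C1qc, whose levels moved together, and for C3, which did not follow them. They come from RefSeq (GRCm38.p6), are written 5′ to 3′ on the gene's own strand, and end with the base before the start site of that table, which for C1qc lies inside the gene's annotated end given above. C1qb spans chr4:136886201-136886450, C1qc chr4:136892915-136893164 and C3 chr17:57228137-57228386. Capitals mark the matches to the motifs searched.
C1qb: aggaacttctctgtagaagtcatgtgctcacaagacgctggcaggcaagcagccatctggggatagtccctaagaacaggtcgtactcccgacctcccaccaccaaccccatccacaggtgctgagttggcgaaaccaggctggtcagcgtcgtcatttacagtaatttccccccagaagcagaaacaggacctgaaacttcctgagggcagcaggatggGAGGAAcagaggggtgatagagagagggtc
C1qc: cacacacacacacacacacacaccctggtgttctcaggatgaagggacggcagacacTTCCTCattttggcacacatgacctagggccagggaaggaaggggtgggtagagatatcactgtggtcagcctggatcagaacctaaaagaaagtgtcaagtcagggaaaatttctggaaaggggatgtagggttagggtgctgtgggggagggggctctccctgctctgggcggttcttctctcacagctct
C3: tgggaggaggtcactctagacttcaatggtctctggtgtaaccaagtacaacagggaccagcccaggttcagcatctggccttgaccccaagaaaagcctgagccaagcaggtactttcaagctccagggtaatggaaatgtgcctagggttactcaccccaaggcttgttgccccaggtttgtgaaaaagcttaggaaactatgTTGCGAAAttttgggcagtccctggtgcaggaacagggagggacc

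The motifs were GAGGAA, the core bound by the myeloid factor PU.1, TTGCNNAA for C/EBP, TTCNNNGAA for STAT, GAAANNGAA for interferon response elements and GGGANNTTC for NF-kappaB, each on both strands of a window of 300 bases (250 upstream and 50 downstream of the start site). C1qb held GAGGAA at -30, and C1qc held it on the opposite strand, printed as TTCCTC, at -193, whereas 28.3% of 32851 promoters held this motif. C3 held the C/EBP letters at -45, as did 10.8% of all promoters at some position. C5ar1 held the interferon response letters on the opposite strand at -66 (8.56% of all promoters). The matches do not overlap one another. No motif was matched for C3ar1, and the STAT and NF-kappaB letters, held by 8.3% and 3.94% of all promoters, were in none of the 5 windows. A match describes the letters only, and no binding was measured here. C1qa, C4b, Cfb and Serping1 had no entry in the promoter table.

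C1q transcripts were by far the most abundant of the 9, and the order of the rest differed between the models. Per kilobase of exon, C1qa averaged 6222 normalized counts in the 19 4T1 tumors and 9262 in the 20 66cl4 tumors, followed in both models by C1qc (3107 and 5243) and C1qb (2921 and 4787). In 4T1 tumors the order continued with C3 (864 per kilobase), Serping1 (632), C4b (597), Cfb (561), C3ar1 (170) and C5ar1 (119). Of these neighbours, C3 lay above Serping1 in 12 of 19 tumors, Serping1 above C4b in 11 and C4b above Cfb in 14, so their order was not stable from tumor to tumor. In 66cl4 tumors C1q was followed by C4b (660 per kilobase), C5ar1 (358), C3ar1 (301), C3 (208), Cfb (191) and, last, Serping1 (44.2). C3 exceeded Cfb in only 12 of 20 66cl4 tumors, whereas Cfb exceeded Serping1 in 20 of 20. By mean normalized count over all tumors, C1qa ranked 66, C1qc 147, C1qb 197, C4b 264 and C3 374 among the 14318 genes, and C5ar1, the lowest of the 9, ranked 3068.

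**Figure D1:**
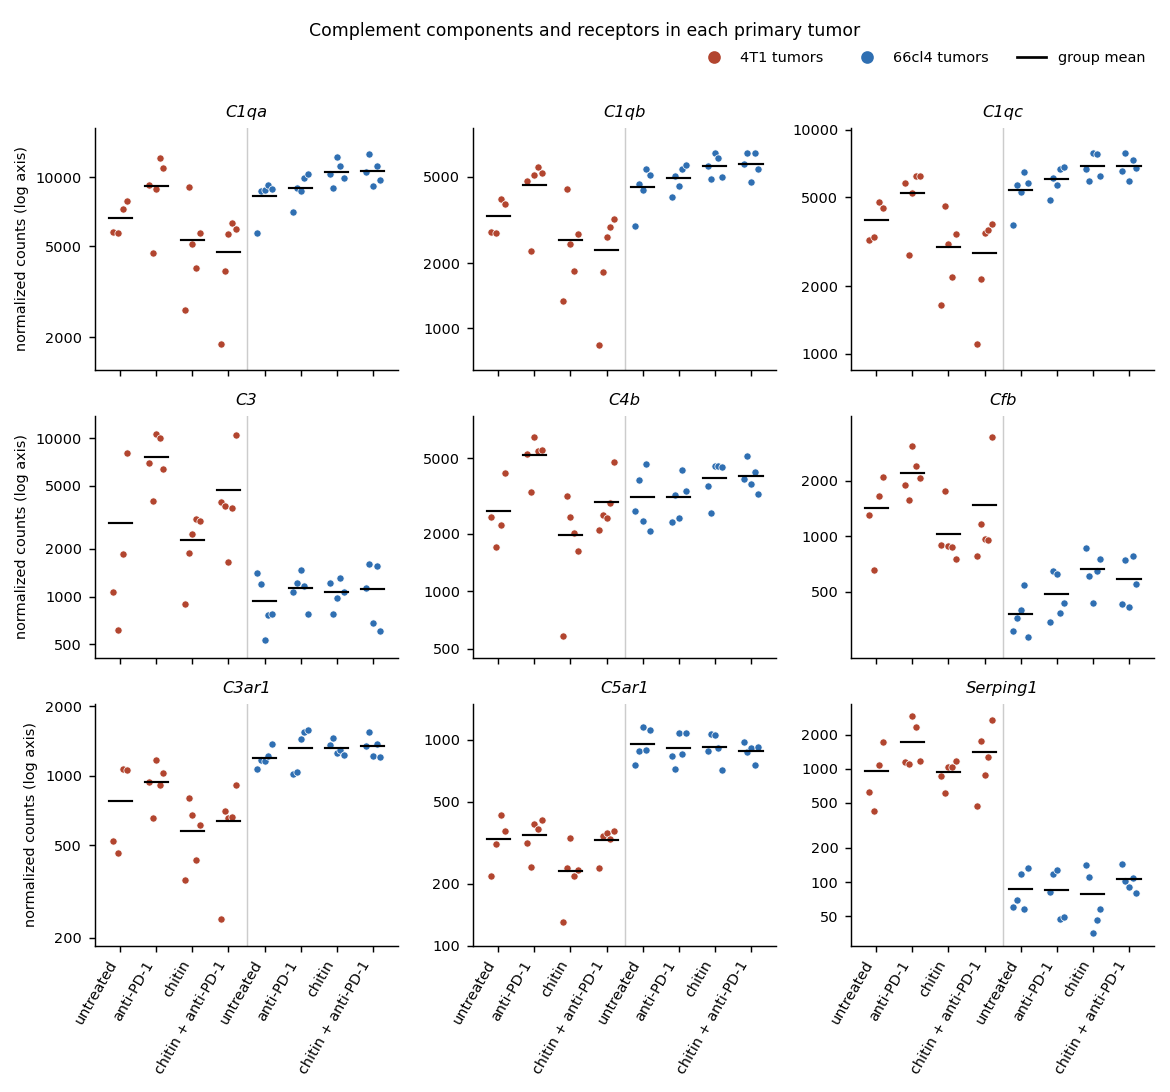
Normalized counts (log axis) of each of the 9 genes in every tumor, with 1 point per tumor, grouped by model and treatment, and the group mean marked. Serping1 and C5ar1 separate the models without overlap, while C3 spreads widely among 4T1 tumors, from 619 to 10637 normalized counts.

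The models differed first at the inhibitor and the C5a receptor. Serping1 was higher in 4T1 tumors, at 1270 ± 701 normalized counts (SD, n = 19) compared to 89.0 ± 34.9 in 66cl4 tumors (SD, n = 20), and C5ar1 was lower, at 306 ± 78.8 compared to 919 ± 133. Averaged over the 4 treatments, limma called 8 of the 9 genes different between the models at an adjusted p under 0.05, 3 higher and 5 lower in 4T1 tumors. This count has to be read against the whole table, of which 78.8% passed the same test (40.8% higher and 38% lower), so a difference between these models is the common case. The median difference of the 9 was -0.67, with 0.01 for all genes.

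C1q was lower in 4T1 tumors. For C1qa, untreated 4T1 tumors held 5769, 5696, 7289 and 7854 normalized counts and untreated 66cl4 tumors 5698, 8698, 8785, 9293 and 8876. The first 66cl4 tumor thus lay at the level of the lowest 4T1 tumors, and the groups overlapped. Averaged over the 4 treatments the difference (4T1 minus 66cl4, VST scale) was -0.67 (SE 0.131, adjusted p = 2.58e-05) for C1qa, -0.79 (SE 0.132, adjusted p = 1.75e-06) for C1qb and -0.82 (SE 0.124, adjusted p = 3.18e-07) for C1qc. Among untreated tumors alone, in which 55.8% of all genes passed (28.7% higher and 27.1% lower), none of the 3 did, with -0.30 (adjusted p = 0.358) for C1qa, -0.42 (0.199) for C1qb and -0.44 (0.153) for C1qc. With only the 2 compared groups in the fit, C1qc passed (-0.44, adjusted p = 0.0487), as it did with tumor weights (-0.51, adjusted p = 0.0493). The marker genes of macrophages were lower in 4T1 tumors too, with 9 of 11 analysed called lower, none higher and a median difference of -1.16. Of all genes, 38% were called lower over the 4 treatments and 27.1% among untreated tumors. The summed macrophage level in untreated tumors ranged from 37508 to 75855 normalized counts in the 4T1 model and from 65976 to 121436 in the 66cl4 model. Whether this accounts for the C1q difference was not tested.

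The central components went the other way for C3 and factor B. C3 was 2.92-fold higher in 4T1 tumors over the 4 treatments (difference 1.55, SE 0.220, adjusted p = 9.6e-08), and Cfb was 2.39-fold higher (1.26, SE 0.142, adjusted p = 7.56e-10). Untreated 4T1 tumors held 1065, 619, 1845 and 8077 normalized counts of C3, compared to 1400, 1206, 534, 765 and 779 in untreated 66cl4 tumors. A single 4T1 tumor, the fifth by its label, stood far above the other 3, and the untreated groups overlapped. Their difference of 0.94 did not pass (SE 0.459, adjusted p = 0.0813), and it moved between 0.25 and 1.40 when 1 tumor was left out, passing the threshold without 4T1 untreated tumor 1 (1.17) or 2 (1.40). Cfb read 1311, 654, 1662 and 2098 in untreated 4T1 tumors and 303, 360, 397, 540 and 283 in untreated 66cl4 tumors, so the lowest 4T1 tumor was above the highest 66cl4 tumor (difference 1.57, SE 0.297, adjusted p = 3.68e-05). Groups without overlap were found for 43.1% of all genes in this comparison. Interferon response genes, among which Cfb is often counted, were higher in 4T1 tumors for 20 of 20 genes (median difference 1.83, mean of the 4 treatments). Of all genes, 40.8% were called higher in that comparison. The part of the interferon response genes in the Cfb difference was not tested.

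C4b was the 1 gene of the 9 that did not pass between models over the 4 treatments. Among untreated tumors 4 of the 9 passed with limma, compared to 55.8% of all genes, and C4b was not among them. Its mean was 3212 ± 1591 normalized counts in 4T1 tumors (SD, n = 19) and 3548 ± 928 in 66cl4 tumors (SD, n = 20), and the difference of -0.27 had a 95% interval from -0.57 to 0.02 (adjusted p = 0.087). The call rested on single tumors, because it passed when 4T1 untreated tumor 5, chitin tumor 2 or chitin + anti-PD-1 tumor 5 was left out, with differences between -0.33 and -0.18 over all tumors left out in turn.

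Both anaphylatoxin receptors were lower in 4T1 tumors. C3ar1, the receptor for C3a, held 525, 466, 1074 and 1059 normalized counts in untreated 4T1 tumors and 1075, 1173, 1155, 1212 and 1375 in untreated 66cl4 tumors, an edge of 1 count between the groups. C5ar1, the receptor for C5a, held 219, 313, 430 and 360 in untreated 4T1 tumors and 750, 877, 1151, 894 and 1109 in untreated 66cl4 tumors. The C5ar1 groups were well apart, and the highest of all 19 4T1 tumors (430) stayed below the lowest of all 20 66cl4 tumors (714). The difference in untreated tumors was -1.27 for C5ar1 (SE 0.149, adjusted p = 8.6e-09) and -0.62 for C3ar1 (SE 0.221, adjusted p = 0.0171), and the C3ar1 call was lost without 4T1 untreated tumor 1 (-0.49) or 2 (-0.44). Over the 4 treatments the differences were -1.30 (SE 0.0716, adjusted p = 4.99e-18) and -0.79 (SE 0.106, adjusted p = 2.76e-08). C5ar1 thus had the smallest error of the 9.

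Serping1 showed the widest gap. Untreated 4T1 tumors held 618, 422, 1071 and 1722 normalized counts and untreated 66cl4 tumors 60.1, 69.9, 118, 58 and 132. Across all treatments the lowest 4T1 tumor held 422 and the highest 66cl4 tumor 145, and Serping1 and C5ar1 were the members without overlap over all 39 tumors, as were 17.9% of all genes. The difference was 2.67 over the 4 treatments (6.36-fold, SE 0.156, adjusted p = 3.16e-17) and 2.33 in untreated tumors (5.02-fold, SE 0.327, adjusted p = 2.69e-07), and with any 1 tumor left out the first stayed between 2.59 and 2.74 and the second between 2.02 and 2.61. Of 8 fibroblast markers 4 were called higher and 2 lower in 4T1 tumors, a share near that of all genes (40.8% higher and 38% lower). Summed fibroblast levels of untreated tumors ran from 23957 to 90703 normalized counts (4T1) and from 9812 to 18198 (66cl4), without overlap. The ranges with chitin (30883 to 79684 and 8827 to 17191) did not overlap either. The ranges overlapped with anti-PD-1 (15445 to 150740 and 7905 to 18509) and with chitin + anti-PD-1 (4348 to 175300 and 10010 to 18748). In 4T1 chitin + anti-PD-1 tumor 1, Serping1 was at 464, compared to 1750, 880, 1256 and 2662 in the other 4. The part of fibroblasts in the Serping1 difference was not tested.

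**Figure D2:**
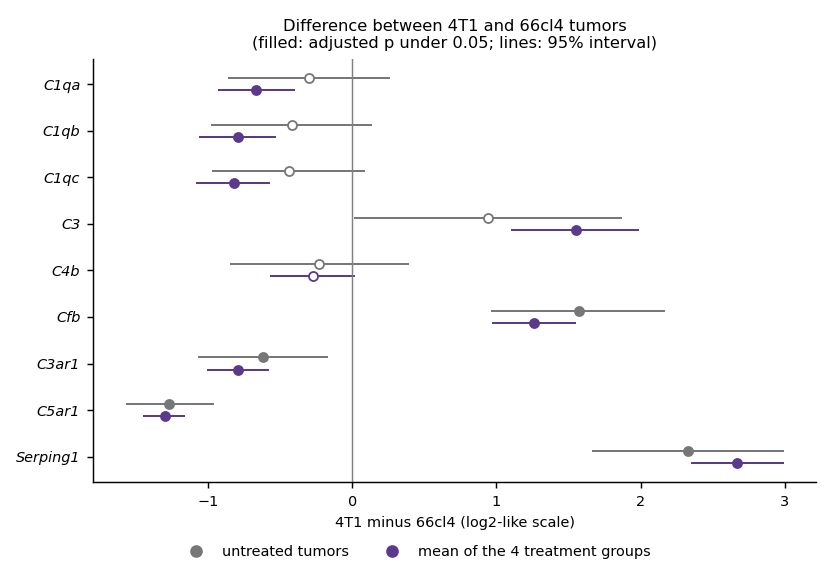
Difference between 4T1 and 66cl4 tumors on the VST log2-like scale for each of the 9 genes, with 95% intervals, in untreated tumors (grey) and averaged over the 4 treatments (purple), filled where the adjusted p was under 0.05. Serping1, C3 and Cfb lie right of 0 and C5ar1, C3ar1 and the C1q genes left of it, while the C4b interval (-0.57 to 0.02) reaches 0.

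The next question was whether chitin, alone or with anti-PD-1, altered complement transcripts within a model. In the 4T1 model, the mean values of C1q were lower in the groups that contained chitin than in the untreated and anti-PD-1 groups combined. C1qb held 2790, 2771, 3940 and 3744 normalized counts in untreated tumors and 4771, 2289, 5117, 5557 and 5188 with anti-PD-1. It held 1344, 4390, 2444, 1839 and 2735 with chitin and 837, 1826, 2647, 2933 and 3213 with chitin + anti-PD-1. The groups overlapped, with chitin tumor 2 among the higher ones and anti-PD-1 tumor 2 among the lower ones. Compared to the other 4T1 tumors, the difference of the chitin-containing ones was -0.70 (SE 0.245, unadjusted p = 0.0103) for C1qa, -0.74 (SE 0.242, unadjusted p = 0.00705) for C1qb and -0.69 (SE 0.230, unadjusted p = 0.00781) for C1qc, with an adjusted p of 0.58 for each. None of the 9 genes, and 0% of all genes, passed after adjustment with limma or with limma-voom. At an unadjusted p under 0.05, 6 of the 9 were lower and none higher, compared to 4.46% of all genes lower. The anti-PD-1 group held the highest C1q values of the 4, and chitin compared directly to untreated tumors gave -0.41 for C1qa (unadjusted p = 0.26), -0.45 for C1qb (0.222) and -0.45 for C1qc (0.2), each with an adjusted p of 1.

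The other 3 of these 6 were C4b (-0.66, SE 0.244, unadjusted p = 0.015), Cfb (-0.56, SE 0.246, unadjusted p = 0.0363) and C3ar1 (-0.44, SE 0.196, unadjusted p = 0.0358). Compared directly to untreated tumors, chitin gave -0.50 for C4b (limma unadjusted p = 0.18), -0.38 for Cfb (0.297) and -0.34 for C3ar1 (0.253). Chitin + anti-PD-1 gave 0.16 (0.654), -0.07 (0.841) and -0.26 (0.379) in the same order. Between chitin-containing and other tumors, C5ar1 (-0.22), C3 (-0.33) and Serping1 (-0.12) had unadjusted p above 0.05, with 95% intervals from -0.46 to 0.02, from -1.16 to 0.50 and from -0.72 to 0.47. Leaving out 4T1 untreated tumor 5 brought C3 to 0.017 and Serping1 to 0.029, so neither had a stable direction. Among macrophage markers 5 of 11 were lower at an unadjusted p under 0.05 with a median difference of -0.47, among T cell markers 6 of 6 with a median of -0.50, and over all genes the median was 0.00. The mean summed T cell level was 494 normalized counts in untreated tumors and 1163 with anti-PD-1. It was 475 with chitin, near the untreated mean, and 352 with chitin + anti-PD-1. The summed macrophage level ranged from 37508 to 75855 normalized counts in untreated tumors, from 25965 to 119427 with anti-PD-1, from 23907 to 79973 with chitin and from 10403 to 72619 with chitin + anti-PD-1, and its part in these differences was not tested. The tumor at 10403 was the first chitin + anti-PD-1 tumor, which also had the lowest C1qb value, and without it the C1qb difference was -0.59.

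In the 66cl4 model, the values of the chitin-containing groups lay higher instead. C1qb held 2964, 4640, 4368, 5431 and 5108 normalized counts in untreated tumors and 4023, 5061, 4523, 5452 and 5703 with anti-PD-1. It held 5641, 4876, 6418, 6132 and 4993 with chitin and 5718, 6472, 4727, 6481 and 5439 with chitin + anti-PD-1. The ranges overlapped, although the lowest values were those of tumors without chitin. The difference was 0.30 (SE 0.0903, unadjusted p = 0.00313, adjusted p = 0.14) for C1qa, 0.27 (SE 0.0956, adjusted p = 0.185) for C1qb and 0.27 (SE 0.0881, adjusted p = 0.162) for C1qc. Cfb (0.43, SE 0.130, adjusted p = 0.142) and C4b (0.37, SE 0.147, adjusted p = 0.238) were also higher at an unadjusted p under 0.05. That made 5 of 9 higher and none lower before adjustment, compared to 7.79% of all genes higher, and 0 of 9 (0% of all genes) after adjustment with limma or limma-voom. C3 was at 0.07 (95% interval from -0.29 to 0.43), C3ar1 at 0.08 (from -0.07 to 0.23), C5ar1 at -0.03 (from -0.21 to 0.14) and Serping1 at 0.04 (from -0.21 to 0.30). Among interferon response genes 13 of 20 were higher before adjustment, with a median difference of 0.27, among macrophage markers 3 of 11 (median 0.09), among T cell markers 3 of 6 (median 0.15) and among dendritic cell markers 4 of 6 (median 0.15). The summed T cell level ranged from 51 to 124 normalized counts in untreated and from 129 to 208 in chitin-treated 66cl4 tumors, and the mean dendritic cell level was 132 untreated, 206 with chitin and 225 with both. The part of these genes and of the greater depth of chitin-containing 66cl4 tumors was not tested.

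Whether the 2 models differed in this respect was tested directly. The difference between models in the chitin contrast (4T1 minus 66cl4) was -1.0 for C1qa (SE 0.263, 95% interval from -1.54 to -0.47), -1.01 for C1qb (SE 0.264) and -0.96 for C1qc (SE 0.249), each with an adjusted p of 0.0791 by limma. C4b (-1.03, SE 0.292, adjusted p = 0.0936) and Cfb (-0.99, SE 0.284, adjusted p = 0.0984) were alike in size. C3ar1 was at -0.53 (adjusted p = 0.263), C3 at -0.40, C5ar1 at -0.18 and Serping1 at -0.17. None of the 9 passed, compared to 0.0978% of all genes (14 genes), and with limma-voom none passed either. At an unadjusted p under 0.05, 6 of 9 were lower, compared to 7.66% of all genes. The result rested on single tumors, since the C1q genes, C4b and Cfb passed when 4T1 anti-PD-1 tumor 2, chitin tumor 2 or chitin + anti-PD-1 tumor 5 was left out, and Cfb alone (-1.14) passed without 4T1 untreated tumor 2.

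**Figure D3:**
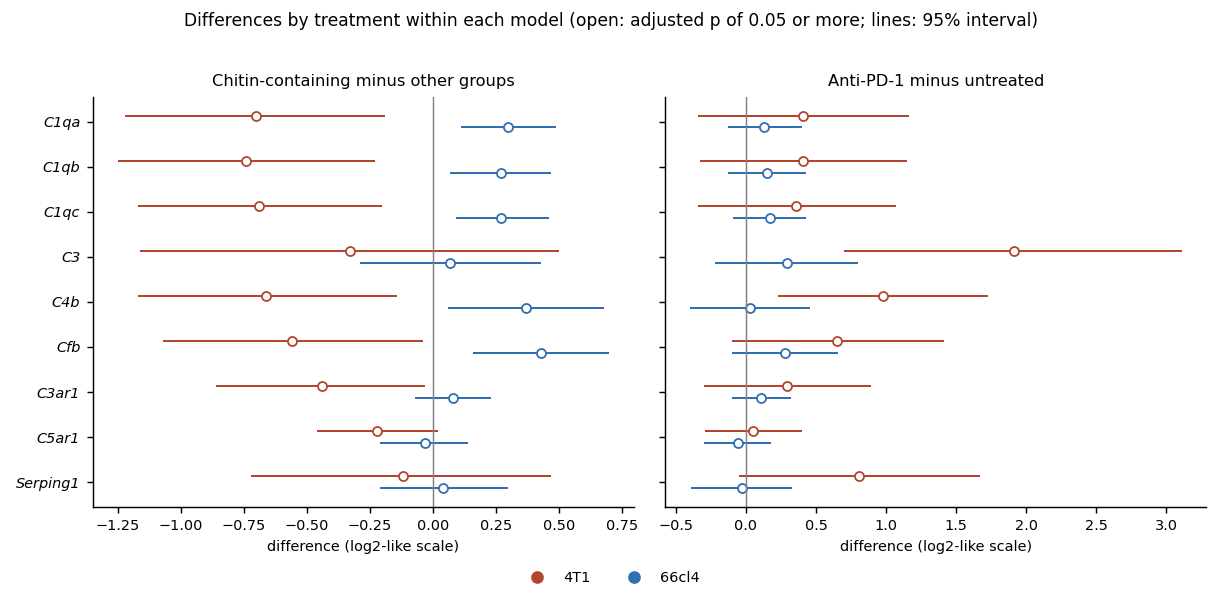
Differences within each model on the VST log2-like scale for each of the 9 genes, with 95% intervals as lines, between chitin-containing and other tumors (left) and between anti-PD-1-treated and untreated tumors (right), with open points for an adjusted p of 0.05 or more. On the left the C1q genes, C4b and Cfb lie below 0 in the 4T1 model (-0.74 to -0.56) and above 0 in the 66cl4 model (0.27 to 0.43), and on the right C3 in the 4T1 model lies furthest from 0 (1.91), with no filled point in either panel.

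Anti-PD-1 alone was compared with untreated tumors in each model. In 4T1 tumors C3 read 6959, 3981, 10637, 10047 and 6400 normalized counts with anti-PD-1, all above 3 of the 4 untreated tumors (619, 1065 and 1845) and overlapping the fourth (8077). The C3 difference was 1.91 (3.75-fold, SE 0.575, 95% interval from 0.70 to 3.11, unadjusted p = 0.0038, adjusted p = 0.517). C4b read 5250, 3308, 6419, 5441 and 5497 with anti-PD-1 and 2465, 1703, 2239 and 4160 untreated, a difference of 0.98 (SE 0.356, unadjusted p = 0.013, adjusted p = 0.517). These 2 were the members with an unadjusted p under 0.05, while 4.52% of all genes were higher by that measure, and none of the 9 (0% of all genes) passed after adjustment with limma or limma-voom. Leaving out 1 tumor kept C3 between 1.44 and 2.60 and C4b between 0.80 and 1.21. Serping1 (0.81, SE 0.410), Cfb (0.65), C1qa (0.41), C1qb (0.41), C1qc (0.36), C3ar1 (0.29) and C5ar1 (0.05) had unadjusted p of 0.0631 or above. T cell markers ranged from 247 to 911 in summed normalized counts in untreated and from 656 to 1712 in anti-PD-1-treated 4T1 tumors, and 5 of 6 were higher before adjustment. Other lists moved with this comparison too, with all 6 adipocyte, 3 B cell and 3 lactating mammary epithelium markers analysed and 5 of 6 dendritic cell markers higher before adjustment. Their median summed levels, untreated and with anti-PD-1, were 86.6 and 1635 normalized counts for adipocytes, 23.1 and 251 for B cells, 21.3 and 1403 for lactating mammary epithelium and 169 and 759 for dendritic cells. Macrophage markers had none past that mark and a median difference of 0.40. The part of these cells in the C3 and C4b values was not tested.

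In 66cl4 tumors anti-PD-1 left no member with an unadjusted p under 0.05 by limma or limma-voom, while 5.36% of all genes had one, and 0% passed after adjustment. C3 (0.29, 95% interval from -0.22 to 0.80) and Cfb (0.28, from -0.10 to 0.66) had the largest estimates, C1qa, C1qb and C1qc were at 0.13, 0.15 and 0.17, and C4b was at 0.03 (from -0.40 to 0.46). The difference between models in the anti-PD-1 contrast was 1.62 for C3 (SE 0.631, unadjusted p = 0.0148, adjusted p = 0.652) and 0.95 for C4b (SE 0.420, unadjusted p = 0.0302, adjusted p = 0.662), and none of the 9 passed with limma or limma-voom, nor did any other gene (0%). Before adjustment C3 and C4b were the 2 members past 0.05, both higher, as were 2.98% of all genes.

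Adding chitin to anti-PD-1 in the 4T1 model gave lower values of C1q. C1qa read 9255, 4660, 8930, 12217 and 11028 normalized counts with anti-PD-1 and 1871, 3894, 5639, 6343 and 5932 with chitin + anti-PD-1. All but anti-PD-1 tumor 2 were above every tumor given both. The differences were -0.99 for C1qa (SE 0.336, adjusted p = 0.398), -1.03 for C1qb (SE 0.333, adjusted p = 0.38) and -0.93 for C1qc (SE 0.316, adjusted p = 0.398), with -0.82 for C4b and -0.73 for Cfb. Before adjustment 5 of 9 were lower, as were 5.59% of all genes, and none of the 9 or of all genes (0%) passed after it with limma or limma-voom. This comparison and the one between anti-PD-1 and untreated tumors share the anti-PD-1 tumors. Compared to untreated 4T1 tumors, the chitin + anti-PD-1 values were -0.58 for C1qa, -0.62 for C1qb, -0.57 for C1qc and 1.06 for C3 (95% interval from -0.14 to 2.27), and no member had an unadjusted p under 0.05, while 2.56% of all genes did.

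C5ar1 was the member with an unadjusted p under 0.05 in the 4T1 comparisons of chitin with untreated tumors (-0.38, SE 0.166, unadjusted p = 0.0358, adjusted p = 1, with 1.38% of all genes lower by that unadjusted mark) and of chitin + anti-PD-1 with chitin (0.37, unadjusted p = 0.0292, adjusted p = 1, with 1.73% of all genes higher). The chitin tumors read 130, 238, 333, 218 and 234 normalized counts of C5ar1, and the chitin + anti-PD-1 tumors 238, 339, 354, 328 and 361. In 66cl4 tumors, chitin compared to untreated gave 0.36 for C1qa (unadjusted p = 0.0105), 0.33 for C1qb (0.024), 0.36 for C1qc (0.00876) and 0.65 for Cfb (0.00202, adjusted p = 0.218), 4 of 9 higher before adjustment and 6.17% of all genes. Chitin + anti-PD-1 gave 0.38, 0.37 and 0.36 for the C1q genes and 0.49 for Cfb (unadjusted p = 0.0141, adjusted p = 0.36), again 4 of 9 higher and 5.77% of all genes. The C1q values leaned on 66cl4 untreated tumor 1, without which chitin gave 0.23 for C1qa, 0.19 for C1qb and 0.24 for C1qc, and chitin + anti-PD-1 0.25, 0.23 and 0.24. Cfb read 859, 608, 434, 645 and 751 normalized counts with chitin, 430, 746, 411, 784 and 548 with both and 303, 360, 397, 540 and 283 without treatment, and the groups overlapped through single tumors. In these 4 comparisons 0% of all genes passed after adjustment with limma or limma-voom.

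The 3 C1q genes kept a nearly fixed proportion in every tumor. The ratio of C1qc to C1qb was 1.2 ± 0.0595 (SD, n = 39) with a range from 1.02 to 1.31, although C1qb itself ranged from 837 to 6481 normalized counts. The ratio of C1qa to C1qb was 2.05 ± 0.131 in 4T1 tumors (n = 19) and 1.85 ± 0.0883 in 66cl4 tumors (n = 20), with overlapping ranges of 1.74 to 2.24 and 1.71 to 2.01. With the group means subtracted, Pearson's r between C1qa and C1qb was 0.99 in 4T1 tumors (rho 0.96, within-group permutation test, adjusted p = 0.000288 for both) and 0.95 in 66cl4 tumors (rho 0.91, adjusted p = 0.00018 for r and 0.00024 for rho). Without the 2 tumors farthest from the median it was 0.97 and 0.91. These tests belonged to a family of 72 pairs, 36 per model, with 100000 resamples each.

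Outside C1q the members were tied more closely in 4T1 than in 66cl4 tumors, though the difference was not tested. No matching values were computed for pairs of other genes, so a trait of these members and one of genes at large cannot be told apart. The other 33 pairs had a median r of 0.67 in 4T1 tumors (0.35 to 0.86, with 19 at an adjusted p under 0.05) and of 0.25 in 66cl4 tumors (-0.61 to 0.61, with 4). In 4T1 tumors C3ar1 moved with C1qb (r = 0.86, rho = 0.72, permutation adjusted p = 0.000309 and 0.00414, and r = 0.77 without the 2 farthest tumors). C3 moved with Serping1 (r = 0.73, rho = 0.76, permutation adjusted p = 0.00738 and 0.00742, and 0.59 without the 2 farthest tumors), but its r with C1qa was 0.35 (rho 0.21, adjusted p = 0.188 and 0.492). In 66cl4 tumors C3 and Serping1 had an r of 0.04, and C4b and Serping1 went in opposite directions (r = -0.61, rho = -0.65, permutation adjusted p = 0.0385 and 0.03, and -0.56 without the 2 farthest tumors).

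**Figure D4:**
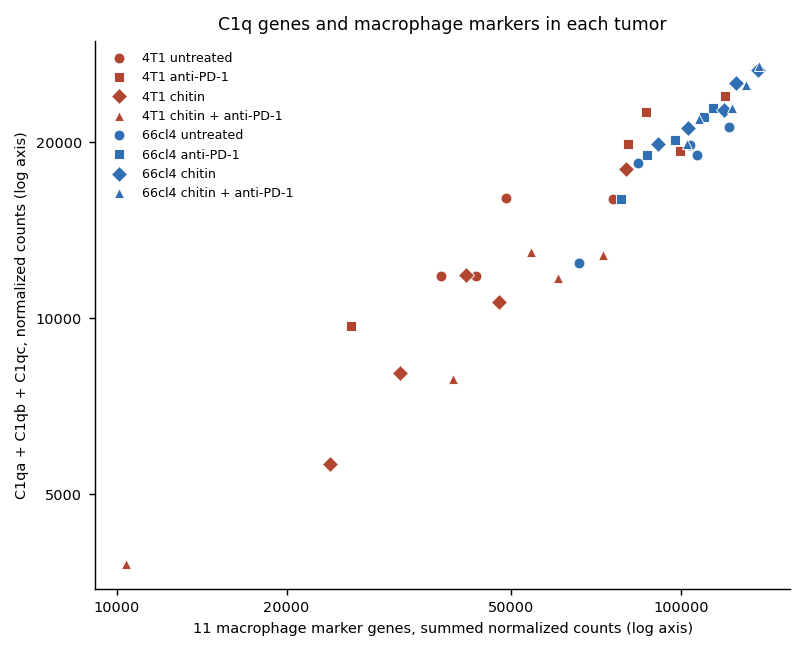
Summed normalized counts of C1qa, C1qb and C1qc against those of 11 macrophage markers, with 1 point per tumor, coloured by model and shaped by treatment, on log axes. The 66cl4 tumors lie close together, with C1q at 17.5 to 22% of the macrophage sum, and the 4T1 tumors spread from 17.7 to 37.4%.

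The share of C1q relative to the macrophage markers was, in mean, somewhat larger in 4T1 tumors. The C1q sum amounted to 25.3 ± 5.8% of the summed macrophage markers in 4T1 tumors (SD, n = 19) and to 19.8 ± 1.23% in 66cl4 tumors (SD, n = 20), and the ranges overlapped. By group, the 4T1 means were 28.1 ± 5.28% untreated (n = 4), 25.5 ± 7.22% for anti-PD-1, 24.5 ± 2.54% for chitin and 23.5 ± 7.66% for both agents together (n = 5 each), differences within the spread between tumors. The 66cl4 means ran from 19 to 20.6%. The sum of markers depends on their relative abundance, and no test was run on these shares.

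Genes whose pattern was most like that of each member were ranked by Pearson's r over the 39 tumors, with group means subtracted, among 11407 genes averaging at least 50 normalized counts. For C1qa, C1qb and C1qc the closest was Unc93b1, a chaperone of endosomal Toll-like receptors (r = 0.95, 0.97 and 0.97), followed by Pld4 (0.94, 0.95 and 0.96) and Ly86 (0.93 for each). For C3ar1 they were Nckap1l (0.95), Myo1f (0.91), Laptm5 (0.91) and Ccdc88b (0.90). For C5ar1 the values were lower, with B430306N03Rik (0.82), the NADPH oxidase subunit Ncf4 (0.81), Alox5ap (0.80), the macrophage marker Cd68 (0.79) and Zfp710 (0.78). These are genes other than the members, and the tumors share their libraries and depth.

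Factor B kept other company. The genes closest to Cfb were H2-T24 (r = 0.89), Mx1 (0.84), Slfn5 (0.83), Trim30d (0.82) and Ifih1 (0.81), of which Mx1 and the RNA sensor Ifih1 are known interferon-stimulated genes. For C3 they were C1ra (0.85), C1rb (0.80), Slco3a1 (0.79), C1s1 (0.75) and Il2rg (0.74), so that 3 of 5 encode the proteases of the C1 complex. Within the models, r was 0.88 in 4T1 and 0.66 in 66cl4 tumors for C1ra, 0.87 and 0.48 for C1rb, 0.89 and 0.50 for Slco3a1, 0.77 and 0.71 for C1s1 and 0.75 and 0.69 for Il2rg. For Serping1, which inhibits those proteases, they were Bicc1 (0.89), Podn (0.88), Cped1 (0.88), Aebp1 (0.87) and Pcsk5 (0.87). For C4b the closest was its near-identical copy C4a (0.84), followed by Plbd1 (0.83), Aoah (0.81), Rab43 (0.81) and Gpr146 (0.81), and shared reads between the copies bear on the first of these.

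Of 48 other genes of the complement system, 29 were analysed. Averaged over the 4 treatments, 6 were higher and 13 lower in 4T1 than in 66cl4 tumors, with a median difference of -0.16, compared to 78.8% of all genes called and a median of 0.01. Among untreated tumors 4 were higher and 15 lower, compared to 28.7% and 27.1% of all genes, with a median of -0.47. The lectin pathway and scavenger molecules Fcna, a ficolin (-3.05), and Colec12, a collectin (-3.00), were furthest below in 4T1 tumors over the 4 treatments. They were followed by properdin (Cfp, -1.96), which stabilizes the alternative pathway convertase, and the integrin subunit Itgam of complement receptor 3 (-1.83). Clusterin (Clu, 2.59), the complement receptor 4 subunit Itgax (2.02), factor D (Cfd, 1.79), which activates factor B, C2 (0.79) and C5 (Hc, 0.59) were furthest above.

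Over the 4 treatments, Cfb and Cfd were thus higher and Cfp lower in 4T1 tumors. Cfd, which adipocytes express strongly, was not called among untreated tumors (0.70, 95% interval from -1.33 to 2.73, adjusted p = 0.57). The 6 adipocyte markers were all called higher in 4T1 tumors over the 4 treatments, compared to 40.8% of all genes. Their mean summed level was 143 normalized counts (14.1 to 383) in untreated and 2002 (6.69 to 4904) in anti-PD-1-treated 4T1 tumors. The part of these markers in the Cfd value was not tested. C2 (chr17:34862602-34882100) lies next to Cfb on chromosome 17, and both are on the minus strand. C2 thus ends just upstream of the start of Cfb, and reads at the border could count for either. Among untreated tumors the genes called with the largest differences were Fcna at -3.31, Colec12 at -3.14, Cfp at -1.86 and Itgam at -1.61 on the lower side, and the 4 called higher were Clu at 2.82, Itgax at 2.30, C2 at 0.64 and Hc at 0.57. The integrin subunits thus parted, with Itgam lower and Itgax higher, while their shared partner Itgb2 was at -0.59 over the 4 treatments.

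**Figure D5:**
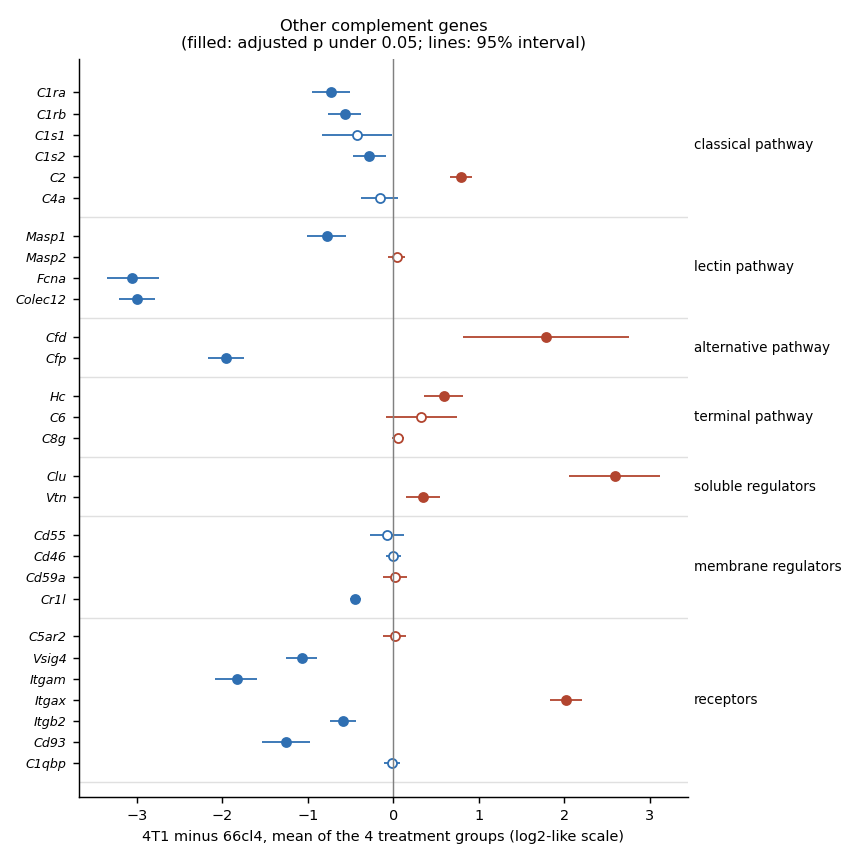
Difference between 4T1 and 66cl4 tumors, averaged over the 4 treatments, on the VST log2-like scale with 95% intervals for 28 of the 29 other complement genes, grouped by pathway, filled where the adjusted p was under 0.05. Fcna and Colec12 lie furthest below 0 (-3.05 and -3.00) and Clu furthest above it (2.59).

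Within the models none of the 29 passed after adjustment with limma in the chitin or anti-PD-1 contrasts. In chitin-containing 4T1 tumors 1 was higher and 4 were lower before adjustment (median difference -0.13), compared to 2.82% and 4.46% of all genes, with Itgax at -0.42 (unadjusted p = 0.0241, adjusted p = 0.636), Itgam at -0.38 (unadjusted p = 0.0708) and Itgb2 at -0.17. In chitin-containing 66cl4 tumors 1 was higher and 3 were lower (median 0.00), compared to 7.79% and 7.84% of all genes. With anti-PD-1 in the 4T1 model 8 of 29 were higher before adjustment (median 0.38), compared to 4.52% of all genes.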

How the data were processed

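Reads of stranded RNA libraries were aligned by the authors with HISAT2 to mm10, counted per gene, kept where over 10 reads were found in 10% or more of cases and transformed with the variance stabilizing transformation of DESeq2, and these log2-like values were deposited. The transformation was inverted, which gave whole reads (within 0.01) for 100% of values, and reads were divided by their size factors to give normalized counts. Differences were tested on the deposited values with limma 3.58.1 in R 4.3.3 (eBayes with a mean-variance trend), with Benjamini-Hochberg adjustment over 14318 genes and a threshold of 0.05. Comparisons within a model used the tumors of that model, and comparisons between models used all tumors. Correlations used permutation within groups (scipy 1.17.1). Every one of the 9 members is named, and other complement genes are named where they passed (the 5 largest per direction), plus the 3 integrin subunits. The members, lists and tests were chosen with earlier results of these data known. Alternatives were scaling, transformation, limma-voom, filtering, tumor weights, a replicate block and leaving out each tumor. The closest 2 tumors of a group differed by a chi-square of 3.12 per gene, above sampling noise, so none was counted as a duplicate. Tumor 3 of the untreated 4T1 group was not analysed here. For 2 genes that the naming rule would give, values are not reported here.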

Additional observations from a re-analysis of the deposited data

Results flagged for a closer look

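In 7 of 72 groups of 4 or 5 tumors, the highest or lowest tumor was set apart from the rest by more of the group's range than Dixon's 95% limit allows, whereas chance gives about 1 in 20. The 72 are not independent, because members that moved together were flagged in the same tumor, so the 2 shares cannot be compared as a test. The gap as a share of the range was 0.86 for C1qa in 66cl4 untreated tumor 1 (5698 normalized counts, with 8698 to 9293 in the others). In 4T1 anti-PD-1 tumor 2 it was 0.83 for C1qb (2289, others 4771 to 5557) and 0.78 for C1qc (2754, others 5224 to 6259), both lowest. Cfb was highest in 4T1 chitin tumor 2 (gap 0.81, 1755 compared to 753 to 892) and in 4T1 chitin + anti-PD-1 tumor 5 (gap 0.74, 3489 compared to 782 to 1173). In 4T1 chitin + anti-PD-1 tumor 1 both receptors were lowest, C3ar1 with a gap of 0.73 (240, others 655 to 913) and C5ar1 with a gap of 0.76 (238, others 328 to 361).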

How the results depend on the processing

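Of 151 counts of members past the threshold under the alternatives other than leaving out a tumor, 144 stayed within 1.5 times the reported count and 7 were higher. With tumor weights, 2 members passed in chitin-containing compared to other 4T1 tumors, 2 with anti-PD-1 compared to untreated 4T1 tumors, 5 with chitin + anti-PD-1 compared to anti-PD-1 in the 4T1 model and 5 in the difference between models in the chitin contrast. With both models in 1 fit, 1 passed with anti-PD-1 compared to untreated and 3 with chitin + anti-PD-1 compared to anti-PD-1 in the 4T1 model. The r between deviations of same-numbered tumors ran from -0.39 to 0.54 and exceeded 0.1 in 22 of 57 pairs. Differently numbered tumors were not compared, so whether the numbers pair the tumors cannot be told from these values. With the number as a replicate block, 3 members passed in the difference between models in the chitin contrast (176 of all genes). Without the block this count was 0, and it ran from 0 to 5 when tumors were left out in turn. Of 789 member differences, 761 kept direction and side, 24 now passed and 4 reversed, all near 0: Serping1 in chitin-containing 4T1 tumors (0.00038 with tumor weights), C5ar1 with anti-PD-1 in 4T1 tumors (-0.00086 with the replicate block), Serping1 in chitin-containing 66cl4 tumors (-0.057 with limma-voom) and C4b with anti-PD-1 in 66cl4 tumors (-0.033 with tumor weights). Leaving out tumors, differences that changed sign ran from -0.56 to 0.017 for C3, and from -0.26 to 0.029 for Serping1 in chitin-containing 4T1 tumors, from -0.0088 to 0.15 for C3, from -0.071 to 0.0041 for C5ar1 and from -0.023 to 0.092 for Serping1 in chitin-containing 66cl4 tumors, from -0.079 to 0.16 for C5ar1 with anti-PD-1 in 4T1 tumors, from -0.093 to 0.19 for C4b, from -0.13 to 0.01 for C5ar1 and from -0.12 to 0.053 for Serping1 with anti-PD-1 in 66cl4 tumors, and from -0.018 to 0.22 for C5ar1 in the difference between models in the anti-PD-1 contrast. The C4b difference between models over the 4 treatments passed with quantile normalization (-0.35, adjusted p = 0.0347). The median r over 36 pairs of members was 0.58 over all tumors, 0.36 without subtracting group means, 0.68 within 4T1 and 0.26 within 66cl4 tumors. The cause of these changes was not tested.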
